A study of Mus musculus with 16 samples.

Results

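The transcriptome of wild-type (WT) mIMCD3 cells after 6 h of hyperosmotic stress was compared with that of the same cells under isosmotic conditions, both with the solvent DMSO. RNA was sequenced and reads were counted per gene. The comparison set 4 of the 16 libraries of the series against each other, 2 per condition. The filter on low counts, the scaling and the estimate of spread came from the 12 WT libraries of the series. By that filter of edgeR, 18959 of 55367 listed genes were tested, whereas 16725 passed with the 4 libraries alone. mIMCD3 is an established mouse epithelial cell line derived from the collecting duct of the inner medulla, the segment of the nephron where urine is concentrated.

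The isosmotic group was WT cells that had received DMSO for 5 h, and the stressed group was WT cells labelled as 6 h of hyperosmotic stress with DMSO. The other groups used below were WT DMSO cells after 1 h at 600 mOsm, and WT cells given SFN (sulforaphane, an activator of the antioxidant transcription factor Nrf2), taken under isosmotic conditions and after 6 h of stress, again with 2 libraries each. The series text gives the osmolality, the 5 h pretreatment and the 10 μM dose of SFN for the isosmotic and 1 h groups and does not describe the 6 h groups separately. No library labelled as 6 h in fresh isosmotic medium was analysed here, so stress and time in new medium cannot be told apart. In bulk RNA, a change in the number of cells of a kind and a change in RNA per cell cannot be told apart either.

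A medium with more solute than the cytosol draws water out of cells, which lose volume and hold their salts in less water. Cells of the renal medulla answer first with ion uptake and later replace the excess ions with small organic osmolytes, namely sorbitol, myo-inositol, betaine, taurine and glycerophosphocholine, which do not disturb proteins. The transcription factor NFAT5, also called TonEBP, drives many of the genes for making and importing these osmolytes, together with heat shock proteins of the HSP70 class. It binds a short DNA motif known as the tonicity element.

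After 6 h, 5790 genes were higher (30.5% of genes tested) and 5133 were lower (27.1%) than under isosmotic conditions, together 57.6%, at a Benjamini-Hochberg adjusted p under 0.05 in edgeR's quasi-likelihood test. Both 6 h libraries lay above both isosmotic libraries for 41% of genes and below both for 36%. A change of at least 2-fold was found for 3584 of the higher genes (18.9% of all genes tested) and for 1606 of the lower genes (8.47% of all genes tested). Among the 12146 genes with at least 1 CPM (counts-per-million of the TMM-scaled library total) in both isosmotic libraries there were 3142 higher (25.9%) and 4949 lower (40.7%), and with at least 2-fold change 7.76% higher and 11.7% lower. That subset was chosen on the isosmotic level, which leaves out genes that rose from low levels, so nothing is read from its balance. Conversely, genes with at most 3 counts in each isosmotic library passed the filter through other libraries. They made up 1364 of the 5790 higher genes (23.6%). Without them, a subset added after the data were seen, 4426 genes were higher and 5133 lower. The balance over all genes tested is therefore not read either. Genes called higher held 40.2% to 40.6% of all counts in the isosmotic libraries and 55.8% to 56.2% in the 6 h libraries, where those with at most 3 counts in each isosmotic library held 0.108% to 0.118%.

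**Figure D1:**
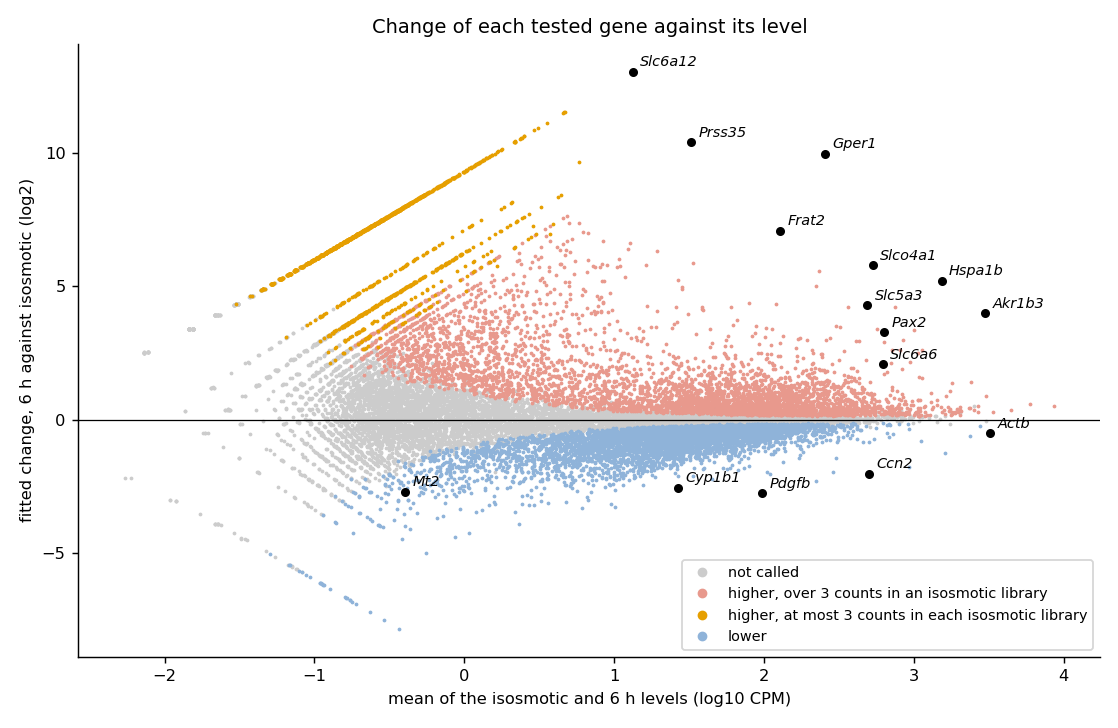
Change of each tested gene after 6 h of hyperosmotic stress. The x axis is the mean of the isosmotic and 6 h levels (log10 CPM), the y axis the log2 change of 6 h against isosmotic, and each point is a gene; orange points are genes with at most 3 counts in each isosmotic library, whose fitted changes depend on the prior count. Silent genes fill the upper left, while Akr1b3 and Hspa1b combine a high level with a large rise.

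Totals were 40319167 and 43991410 counts in the isosmotic libraries and 37915285 and 35658359 at 6 h. The biological coefficient of variation between libraries of a condition was 0.112 under isosmotic conditions and 0.0643 at 6 h. The 6 h libraries had counts for more genes (25115 and 24274) than the isosmotic libraries (21349 and 20729) although they were shallower. Their TMM scaling factors were also lower, 0.907 and 0.905 against 1.05 in each isosmotic library. With scaling by total counts alone, 4634 genes were higher and 6766 lower, and the median log2 change of all genes moved from 0.07 to -0.13. Where a group's balance of calls or its median turned under that scaling, the values are given beside it below. Over all genes tested 30.5% were higher and 27.1% lower, and each group count below is set beside these shares. Nothing is read from a group count near them. Group members with at most 3 counts in each isosmotic library passed the filter through other libraries. The line expressed epithelial and duct genes at isosmotic levels of 1039.8 CPM (Krt8), 223 CPM (Cdh1) and 118 CPM (Pax2). Defining genes of the vasopressin-responsive principal cell were at or near 0. Aqp2 had 0 and 0 counts under isosmotic conditions and 3 and 4 at 6 h, Avpr2 had 0 and 0 counts and then 2 and 0, and Scnn1b had 0 counts in all 4 libraries.

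The main genes for making or importing organic osmolytes rose. Akr1b3 encodes aldose reductase, which makes sorbitol from glucose, and it stood at 338 and 373 CPM under isosmotic conditions and at 5522 and 5739 CPM after 6 h. Both stressed libraries lay far above both controls, and the difference in mean CPM was the largest of any named gene. The rise was 15.8-fold, with a log2 change of 3.99 ± 0.066 (SE, n = 2 libraries per condition) and an adjusted p of 4.8e-20 by edgeR. The gene lies on chromosome 6 at 34302434 to 34317478 on the minus strand (GRCm38, GENCODE M21) and overlaps another gene active at 6 h.

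Slc5a3, the sodium-coupled myo-inositol transporter, was measured at 49.2 and 45.9 CPM before stress and at 982 and 876 CPM after 6 h. The groups did not overlap, and the change was 19.6-fold (log2 4.29 ± 0.13, adjusted p = 4.3e-11, edgeR). At 1 h the gene had reached 90.2 and 83.2 CPM, so most of the rise came later. It is located on chromosome 16 at 92058322 to 92087473, plus strand, and its annotated span overlaps another active gene, so reads of the overlapping parts may be shared.

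Slc6a12, the betaine transporter, was absent from both isosmotic libraries (0 and 0 counts), had 2 and 4 counts at 1 h, and reached 877 and 896 counts (25.5 and 27.8 CPM) at 6 h. Only the 6 h libraries held it in quantity. Against a floor of 3 counts per library the rise was at least 391-fold (adjusted p = 4.6e-14, edgeR). Slc6a6, the taurine transporter, went from 265 and 215 CPM to 1048 and 959.8 CPM, a 4.19-fold rise (log2 2.07 ± 0.079) with no overlap of the groups. At 1 h it had still been at 246 and 258 CPM, within the isosmotic values.

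Enzymes of glycerophosphocholine metabolism moved in opposite directions. Pnpla6, a lysophospholipase that releases glycerophosphocholine from membrane lipid, rose from 93.4 and 82.5 CPM to 164 and 168 CPM (log2 0.92 ± 0.075). Gdpd5, a phosphodiesterase that breaks glycerophosphocholine down, fell from 10.95 and 11.44 CPM to 3.61 and 3.72 CPM (log2 -1.61 ± 0.16), although at 1 h it had stood at 21.01 and 21.22 CPM. In each case the 2 stressed libraries lay on the same side of both controls.

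The other members did not follow. Slc6a8, the creatine transporter, fell from a mean of 45.2 to 34.4 CPM (log2 -0.39 ± 0.083). Slc5a11, a second inositol transporter, had 0 and 0 counts before stress, 14 and 5 at 1 h and 0 and 4 at 6 h and was not called. Slc6a13, a GABA and betaine transporter, had 2 and 2 isosmotic counts and 5 and 0 at 6 h and was not tested. In all, 5 of 8 tested osmolyte genes rose and 2 fell, and their median log2 change was 3.03, or 1.49 with silent genes placed at their bounds, against 0.07 over all genes (0.05 with bounds).

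**Figure D2:**
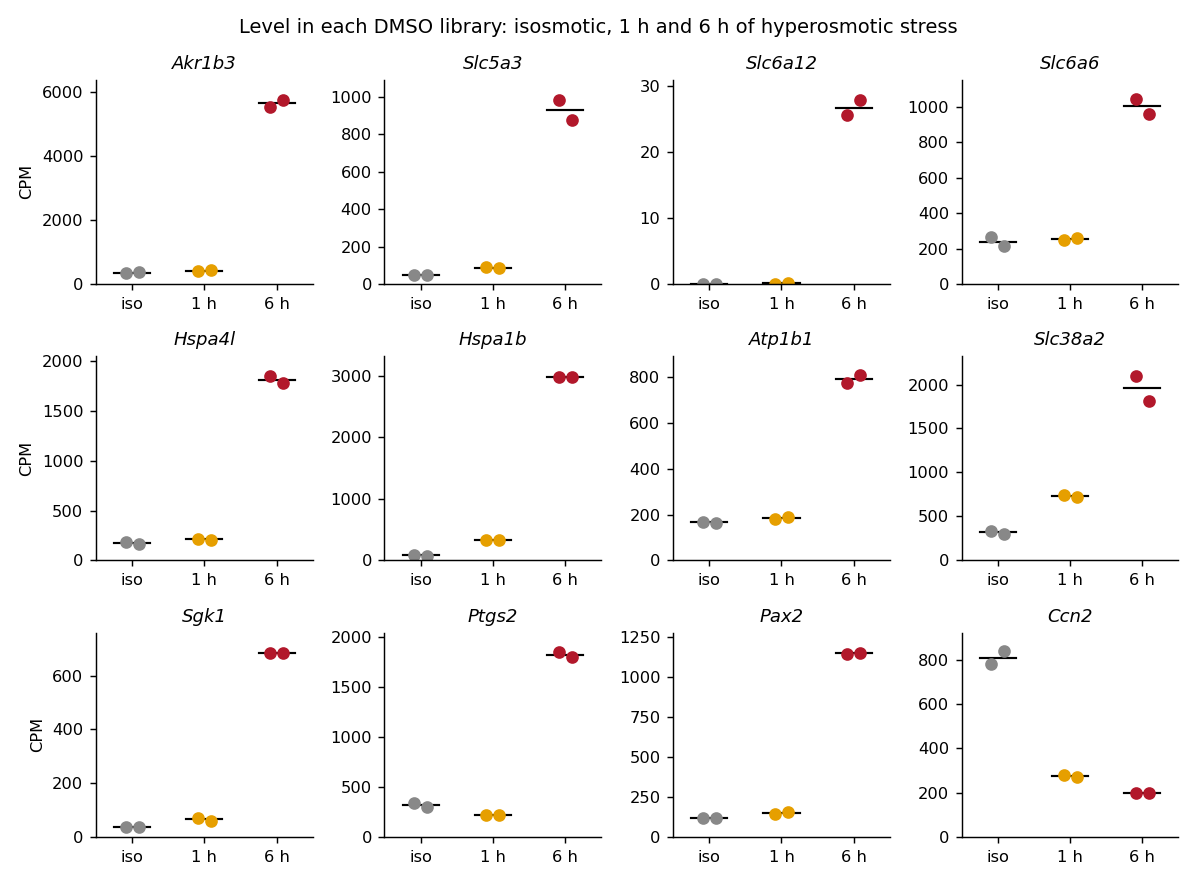
Levels of 12 genes in the 6 WT DMSO libraries. Each panel is a gene, the x axis gives isosmotic, 1 h and 6 h, the y axis is CPM starting at 0, each point is a library and the short line is the mean of 2 libraries. Akr1b3, Slc5a3, Slc6a12, Slc6a6 and Hspa4l rose mainly between 1 h and 6 h, Hspa1b had begun to rise by 1 h, Ptgs2 passed through a lower level at 1 h, and Ccn2 fell at both times.

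The tonicity element was looked for on both strands in the 250 bases before each start of transcription in the RefSeq promoter table (GRCm38.p6). Matches carry the core TGGAAA, which any promoter can hold by its base composition. Of 40 named genes with a promoter entry, 5 held the element (Slc6a12, Pnpla6, Nupr1, Rnf183 and Cxcl2), and Akr1b3 and Slc6a6 had no entry. Promoters of 4 of these are shown because the genes rose 19.1-fold or more, and capitals mark the matched bases, on either strand.
Slc6a12, chr6:121342324-121342573, plus strand: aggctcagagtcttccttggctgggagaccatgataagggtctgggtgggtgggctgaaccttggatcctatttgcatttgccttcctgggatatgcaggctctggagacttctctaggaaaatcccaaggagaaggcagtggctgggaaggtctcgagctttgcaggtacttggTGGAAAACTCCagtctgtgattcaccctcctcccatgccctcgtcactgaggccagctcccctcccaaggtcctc
Nupr1, chr7:126625471-126625720, minus strand: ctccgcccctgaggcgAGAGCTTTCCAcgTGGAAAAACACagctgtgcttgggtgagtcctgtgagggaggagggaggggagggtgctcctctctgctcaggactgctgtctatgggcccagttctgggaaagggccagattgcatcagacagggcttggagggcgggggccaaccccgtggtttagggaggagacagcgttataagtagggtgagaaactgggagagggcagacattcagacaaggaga
Rnf183, chr4:62435251-62435500, minus strand: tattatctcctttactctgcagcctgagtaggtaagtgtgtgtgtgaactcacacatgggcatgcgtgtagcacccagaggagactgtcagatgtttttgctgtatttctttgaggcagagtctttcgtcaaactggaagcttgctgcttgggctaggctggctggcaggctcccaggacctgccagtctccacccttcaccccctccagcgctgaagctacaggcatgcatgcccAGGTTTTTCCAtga
Cxcl2, chr5:90903649-90903898, plus strand: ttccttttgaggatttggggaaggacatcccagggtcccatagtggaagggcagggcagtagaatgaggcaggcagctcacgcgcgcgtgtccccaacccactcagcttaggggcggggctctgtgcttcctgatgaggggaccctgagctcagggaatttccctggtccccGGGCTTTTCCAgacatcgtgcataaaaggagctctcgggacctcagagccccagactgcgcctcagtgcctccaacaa

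In Slc6a12 the match lies 75 to 65 bases before the first of its 5 listed starts, and the windows of the other starts hold none. Nupr1 holds 2 matches, the farther of which begins 234 bases before its start. In Rnf183 the match lies 14 to 4 bases before 1 of its 2 listed starts, and the window of the other holds none, and in Cxcl2 it lies 78 to 68 bases before. Of all 32851 promoters listed, 4.31% held the element. It was found in 10 of 156 genes (6.41%) that rose at least 4-fold from 1 CPM or more, in 35 of 692 (5.06%) that rose at least 2-fold and in 42 of 1073 (3.91%) that fell at least 2-fold, beside 3.81% of the 9078 genes with a promoter at 1 CPM or more. Among NFAT5 targets outside the osmolyte list, 0 of 12 held it in this window. A match is a description of the letters, and no match says only that they are absent from these 250 bases.

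Other short motifs were searched in the same windows, on both strands. CGGAAG, the core of many ETS sites, stood in 16.7% of genes that rose at least 4-fold, in 27.3% of those that fell at least 2-fold and in 30.4% of all genes at 1 CPM or more. TATAAA stood in 14.7%, 6.62% and 7.09% of the same groups. Among genes that rose at least 2-fold the shares were 20.2% for CGGAAG and 10.3% for TATAAA. Among genes silent before stress and higher at 6 h, CGGAAG was present in 8.92% and TATAAA in 15.4%, beside 13.6% and 12.4% of all promoters in the table. The palindromic E-box CACGTG was present in 12.7% of genes that rose at least 2-fold and in 8.67% of those that fell at least 2-fold, beside 10.3% of all genes at 1 CPM or more. In the same order, AP-1 sites stood in 5.35%, 5.5% and 5.1%. For CCAAT the shares were 43.8%, 41.1% and 41.2%, and for the GC box 70.5%, 58.7% and 66.7%. Among genes that rose at least 4-fold the E-box stood in 12.2%, AP-1 sites in 7.05%, CCAAT in 47.4% and the GC box in 66.0%.

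Nfat5 itself rose from 339 and 249 CPM to 1043 and 891 CPM (3.29-fold, adjusted p = 5.4e-05, edgeR). Of 14 tested NFAT5 targets outside the osmolyte list, 11 rose (78.6%, beside 30.5% of all genes) and 0 fell (27.1% of all genes did). The median log2 change was 2.89 (1.89 with bounds). Of the 11, 2 had at most 3 counts in each isosmotic library and passed the filter through other libraries. Slc38a2, a neutral amino acid transporter, rose from 331 and 306 CPM to 2101 and 1818 CPM, and had already reached 739.9 and 726 CPM at 1 h. Il6, a cytokine that NFAT5 can induce, had 0 and 0 counts before stress, 45 and 37 at 1 h and 10 and 12 at 6 h, so it was higher at 6 h (at least 4.87-fold) but from very few reads. Aqp2, the vasopressin-regulated water channel and a classic target, was not called.

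Several chaperones of the cytosol rose, led by the HSP70 and HSP110 classes. Hspa1b, an inducible HSP70, stood at 81.5 and 80.2 CPM in isosmotic libraries, at 333 and 336 CPM after 1 h and at 2988 and 2983 CPM after 6 h. The 3 conditions did not overlap, and the 6 h rise was 36.9-fold (log2 5.21 ± 0.069, adjusted p = 1.3e-21, edgeR). Its near-identical neighbour Hspa1a rose 17.4-fold from 4.24 to 73.9 CPM, and reads shared by the 2 copies may have been split or lost in counting. Hspa4l, an HSP110 relative known as an osmotic stress protein, rose from 189 and 163 CPM to 1851 and 1779.9 CPM (10.3-fold), and Hsph1, another HSP110, rose 3.71-fold from 356 to 1321 CPM. Hsf2, a heat shock transcription factor, rose 3.57-fold.

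The rise was not shared by every chaperone. Hspa8, the constitutive HSP70, fell from 2974 to 2510.3 CPM (log2 -0.24 ± 0.061). Of 32 cytosolic and mitochondrial chaperone genes, 17 rose and 6 fell (median log2 change 0.23), against 12 and 10 under total counts. In the endoplasmic reticulum, Dnajb9 (a co-chaperone) rose 4.90-fold, the sensor Atf6 rose 2.34-fold and Crebrf, a regulator of the unfolded protein response, rose 4.53-fold, whereas Xbp1, its central transcription factor, fell from 62.8 and 61.2 CPM to 16.1 and 18.9 CPM. Of 34 such genes 11 rose (32.4%) and 7 fell (20.6%), beside 30.5% and 27.1% of all genes, with a median of 0.05. There were 5 and 15 (median -0.16) under total counts, and without 6 h replicate 1 the number higher was 7.

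Genes of the sodium pump and its regulators rose. The Na,K-ATPase exports the sodium that enters during volume recovery. Atp1b1, its main beta subunit, went from 169 and 165 CPM to 776 and 809 CPM, with no overlap of the groups (4.75-fold, adjusted p = 8.2e-17, edgeR). At 1 h it had been at 179 and 189 CPM. FXYD proteins tune the pump, and Fxyd2 appeared at 45 and 54 counts from 0 and 0 (at least 21.9-fold) while Fxyd4 went from 18 and 6 counts to 603 and 375. In total 7 of 9 tested pump and FXYD genes rose and 0 fell (median log2 change 2.25), and under total counts 1 fell. The list held 13 genes. Of the 7 that rose, 2 had at most 3 counts in each isosmotic library and passed the filter through other libraries.

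Among regulators of cell volume and ion transport the changes ran in both directions. Sgk1, a kinase that activates epithelial ion transport, rose 18.4-fold from 37.0 and 37.3 CPM to 684 and 685 CPM, with 71.4 and 59.8 CPM at 1 h. Kcnj16, an inwardly rectifying potassium channel, rose 17.7-fold from 4.17 and 4.08 CPM to 70.3 and 75.9 CPM and had not moved at 1 h (3.40 and 4.59 CPM). Wnk2, a kinase of the family that controls cation-chloride cotransport, had 0 and 0 counts before stress and 124 and 114 at 6 h (at least 52.4-fold). Lrrc8e, a subunit of the swelling-activated anion channel, fell from 18.3 to 4.40 CPM (log2 -2.06 ± 0.22).

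Of 30 tested genes in that group 13 rose and 9 fell (median log2 change 0.15), against 9 and 12 (median -0.05) under total counts. Aqp1, a water channel, went from 34 and 47 counts to 450 and 570 (16.7-fold), and Aqp5 rose 4.30-fold from a mean of 0.452 CPM. Of 13 listed aquaporins and urea transporters 6 were tested, of which 3 rose and 0 fell. Of the 3, 1 had at most 3 counts in each isosmotic library and passed the filter through other libraries. The urea transporter Slc14a2 had 0 and 0 counts before stress and 1 and 0 after.

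Prostaglandin synthesis was represented by a large rise of Ptgs2 (cyclooxygenase-2), from 342 and 300.1 CPM to 1847 and 1799 CPM (5.68-fold). The 1 h libraries, at 219 and 218 CPM, lay below the controls. Ptgs1 rose 2.96-fold from 1.88 CPM, and the receptor gene Ptger4 fell from 107 and 102 CPM to 68.6 and 63.1 CPM, after 25.95 and 24.98 CPM at 1 h. Over the group 4 of 13 tested genes rose (30.8%) and 3 fell (23.1%), or 3 and 4 under total counts. These shares were near those over all genes, 30.5% and 27.1%, so nothing is read from the group counts.

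Amino acid transport changed by member. Besides Slc38a2, Slc3a1, the heavy subunit of the cystine transporter, went from 7 and 4 counts to 167 and 119, and Slc1a3, a glutamate transporter, from 8 and 9 counts to 82 and 68. The cationic amino acid transporter Slc7a3 rose 3.24-fold from 0.847 CPM. Among 25 tested transporters 12 rose and 5 fell (median log2 change 0.53). Glul, glutamine synthetase, rose 2.02-fold from 17.3 to 35.0 CPM, and Shmt1, an enzyme of one-carbon metabolism, rose 1.76-fold. Of 23 genes of amino acid synthesis and one-carbon metabolism 9 rose and 8 fell (7 and 11 under total counts), and 5 fell without isosmotic replicate 2 or without 6 h replicate 1.

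Regulators of the integrated stress response did not move as a block. Nupr1, a stress-induced transcriptional cofactor, rose 32.3-fold from 13.7 and 13.0 CPM to 407 and 451 CPM, and Ddit4, an inhibitor of mTORC1, rose 8.86-fold from 16.8 to 149 CPM. Atf4, the central transcription factor, rose 1.56-fold and Cebpb 2.26-fold. Trib3 and Gdf15, both known to be induced by ATF4, fell, Trib3 from 16.1 and 17.5 CPM to 4.74 and 3.16 CPM and Gdf15 from 340.1 and 398 CPM to 73.3 and 78.1 CPM. In all, 9 of 19 genes rose and 5 fell (median log2 change 0.36).

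Several regulators and enzymes of glycolysis rose, and most sterol synthesis genes fell. Pfkfb3, which makes the activator of phosphofructokinase, rose 3.18-fold, Pfkp (phosphofructokinase) 2.81-fold and Pkm (pyruvate kinase) 1.86-fold, the last from a mean of 2132 to 3966 CPM. Txnip, which restrains glucose uptake, fell from 25.1 to 6.63 CPM, while Eno2 and the lactate exporter Slc16a3 fell as well (log2 -1.48 and -1.40). Of 30 genes of glucose use 14 rose and 7 fell (median 0.16), against 8 and 11 (median -0.05) under total counts.

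Of 26 genes of cholesterol synthesis and its control, 18 fell and 3 rose, with a median log2 change of -0.47. Dhcr7, which completes the pathway, fell from 33.2 to 16.3 CPM, Mvk (mevalonate kinase) from 30.4 to 15.9 CPM and Hsd17b7 from 30.6 to 16.8 CPM. Fdps, which makes farnesyl pyrophosphate, was among the 3 with a 2.05-fold rise from 1.94 CPM. Polyamine genes also changed, with 4 of 12 higher and 5 lower. Sat1, which acetylates polyamines for export, rose 8.82-fold from 27.1 to 239 CPM, and Amd1, needed for spermidine synthesis, rose 3.03-fold.

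**Figure D3:**
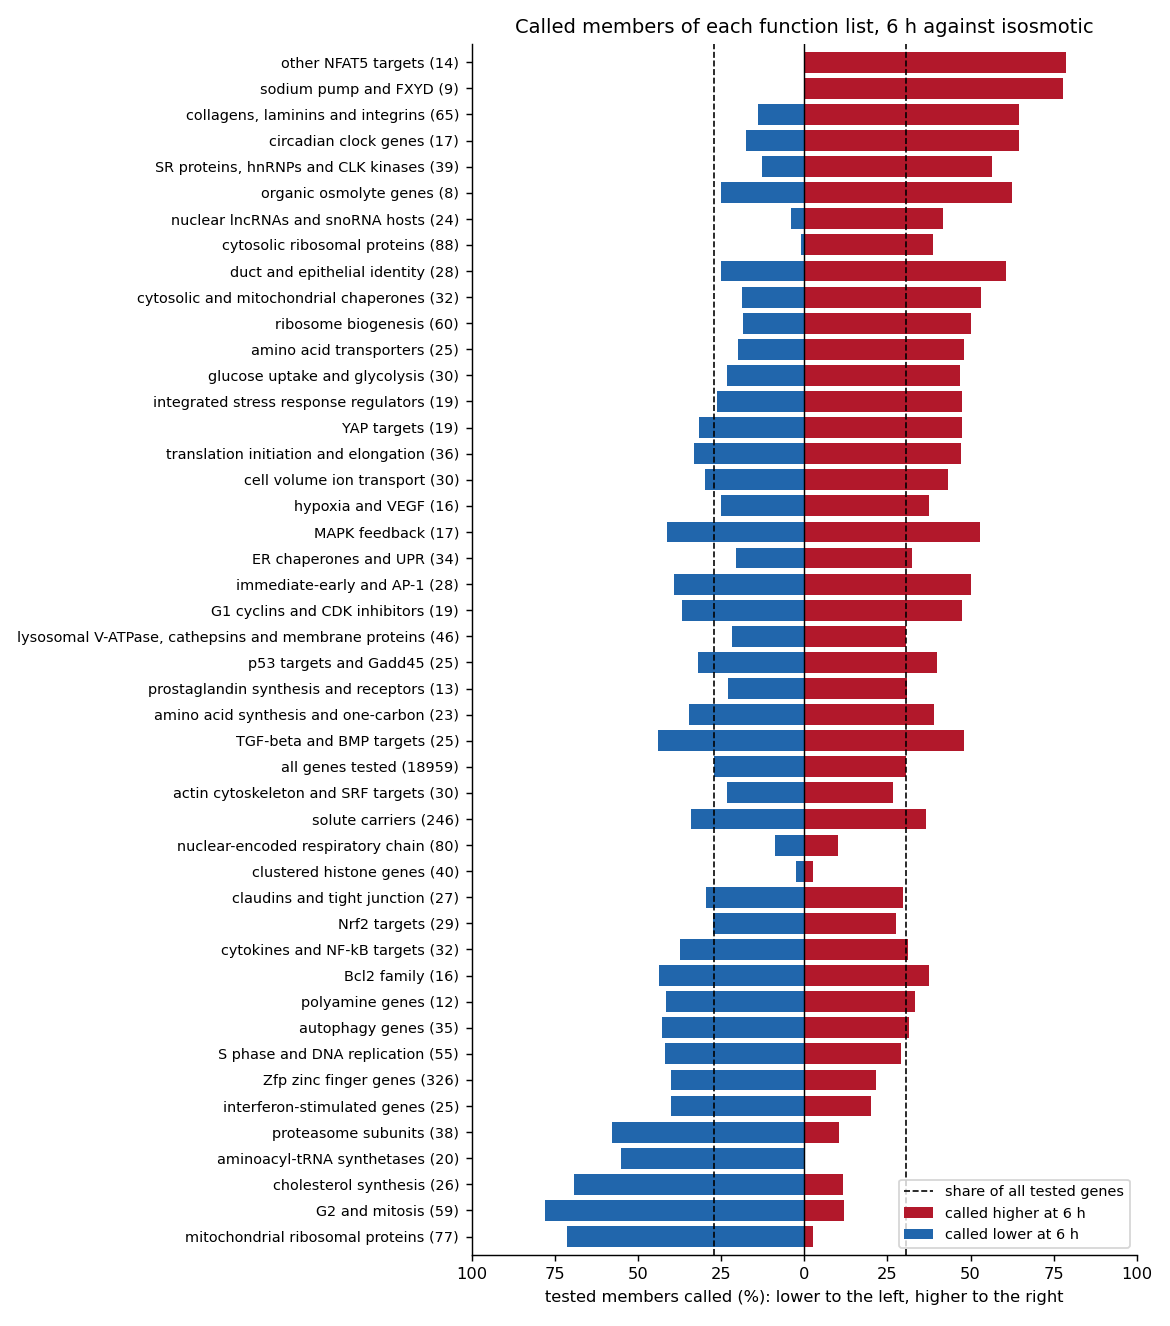
Share of each gene group called after 6 h. Groups with at least 8 tested genes are shown. Bars to the right give the percentage of tested members called higher and bars to the left the percentage called lower, with the number tested beside each name; dashed lines mark the shares over all genes, 30.5% and 27.1%. Sodium pump, NFAT5, clock, collagen and integrin, and osmolyte genes stand on the higher side, and mitosis, mitochondrial ribosome and cholesterol genes on the lower side.

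Immediate-early genes and feedback inhibitors of MAP kinase signalling split into risers and fallers. Ier3 rose 7.95-fold from 175 and 205 CPM to 1506 and 1511 CPM, and the nuclear receptor Nr4a2 rose 11.5-fold from 14.0 to 161 CPM. Klf4 rose 6.74-fold and the AP-1 subunit Fosl2 6.13-fold, whereas Fos itself rose 1.83-fold from 16.8 to 30.8 CPM. The phosphatase Dusp6 was at 149.9 and 150.2 CPM under isosmotic conditions, 57.3 and 62.3 CPM at 1 h, and 1118 and 1122 CPM at 6 h. The feedback inhibitor Spry1 fell at each time and reached 33.9 and 31.2 CPM from 112 and 116 CPM.

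Of 28 immediate-early and AP-1 genes 14 rose and 11 fell at 6 h, while at 1 h 3 had been higher (14.3% of all genes were) and 20 lower (8.53%). Of 17 MAPK feedback genes 9 rose and 7 fell at 6 h (7 and 8 under total counts), and 0 were higher and 13 lower at 1 h. These 1 h and 6 h comparisons share the isosmotic libraries.

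The neutrophil-attracting chemokines Cxcl1, Cxcl2 and Cxcl5 rose 11.2-fold, 20.8-fold and 18.4-fold. Cxcl2 stood at 6.68 and 7.88 CPM before stress and at 153 and 151 CPM after 6 h, a clear separation. Il11 rose 7.10-fold and Ccl2 2.45-fold. In the whole cytokine and NF-kB group, 10 of 32 genes rose and 12 fell, with a median log2 change of 0.16 that became -0.05 under total counts.

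Of 25 interferon-stimulated genes 10 fell and 5 rose (median log2 change -0.42), and 3 rose without isosmotic replicate 1 or 6 h replicate 2. The RNA sensor Ifih1 fell from 13.6 to 3.89 CPM, Eif2ak2, the double-stranded RNA-activated kinase PKR, from 45.8 to 18.2 CPM and Isg15 from 8.94 to 3.70 CPM.

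Circadian clock genes were higher in 11 of 17 cases and lower in 3, with a median log2 change of 0.75. Per1 rose 4.14-fold from 45.7 and 43.7 CPM to 196 and 175 CPM, Cry1 4.10-fold, Nfil3 3.35-fold and Arntl 2.83-fold. Activators and repressors of the clock thus rose side by side, and Bhlhe41 fell from 4.46 to 1.35 CPM.

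Targets of the transcriptional coactivator YAP were divided. Ccn2 stood at 781 and 839.6 CPM before stress, at 279.9 and 272 CPM after 1 h and at 199 and 199.6 CPM after 6 h (log2 -2.02 ± 0.078, adjusted p = 2.6e-14, edgeR). The 3 conditions did not overlap. Ccn1 fell from 2250.1 to 952 CPM, the largest fall in CPM of the named genes, Ankrd1 from 1432 to 419 CPM and F3, tissue factor, from 458 to 116 CPM. Tead4, a DNA-binding partner of YAP, rose 3.83-fold and Crim1 2.74-fold, so that 9 of 19 genes in the group rose and 6 fell (7 and 9 under total counts).

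In the actin group the cytoplasmic actins Actb and Actg1 fell (log2 -0.51 and -0.63), as did Srf, their transcription factor (133 to 65.9 CPM), and Cnn2 (327 to 194 CPM), while Fhl2 rose 2.19-fold. Of 30 genes 8 rose (26.7%) and 7 fell (23.3%), beside 30.5% and 27.1% of all genes. These were 3 and 14 under total counts, and 5 rose without 6 h replicate 2. Among TGF-beta and BMP genes 12 of 25 rose and 11 fell (11 and 11 under total counts). Inhba, which encodes activin A, rose 5.21-fold from 40.1 to 209 CPM. Id1, a direct BMP target, was at 236 and 265 CPM, then 42.8 and 45.1 CPM at 1 h, then 88.7 and 95.4 CPM at 6 h. Atoh8 fell from 11.5 to 2.68 CPM.

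Of 86 listed collagens, laminins, integrins and related genes of matrix and adhesion, 65 were tested. Among them 42 rose (64.6%, beside 30.5% of all genes) and 9 fell (13.8%, beside 27.1%). The median log2 change was 0.49 (0.48 with bounds). Of the 42, 8 had at most 3 counts in each isosmotic library and passed the filter through other libraries. Itga3, the laminin-binding integrin alpha 3, rose 2.59-fold from 1029 and 961 CPM to 2562 and 2598 CPM. Col2a1, a cartilage collagen, had 5 and 0 counts before stress, 365 and 348 at 1 h and 374 and 294 at 6 h, so its 1 h and 6 h levels were close. Several members rose from near 0, such as Itgax from 0.0573 to 7.43 CPM and Lama2 from 0 and 0 counts to 32 and 24. Of 27 tested claudin and tight junction genes 8 rose and 8 fell (29.6% each, near the 30.5% and 27.1% of all genes). Under total counts these were 8 and 13. Of the 8 that rose, 2 had at most 3 counts in each isosmotic library.

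Several transcription factors of kidney and duct identity rose. Pax2, needed for nephric duct development, went from 118 and 117 CPM to 1142 and 1151 CPM (9.72-fold, adjusted p = 1.2e-18, edgeR), with 145 and 153 CPM at 1 h. Pax8 followed closely, from 92.5 and 98.4 CPM to 718 and 733 CPM (7.60-fold). Ehf, an epithelial ETS factor, rose 5.04-fold, and the tyrosine kinase receptor Ret rose from a mean of 0.0119 to 1.21 CPM. Sox9, chosen after its values were seen, rose 10.7-fold from 17.4 to 187 CPM. In the identity group 17 of 28 genes rose and 7 fell (median log2 change 0.55), and Krt8, a simple-epithelium keratin, was among the latter (log2 -0.37 ± 0.065).

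Most mitotic genes fell, and replication genes moved in both directions. Of 59 genes of G2 and mitosis, 46 fell and 7 rose, and the median log2 change was -0.43. Ccnb1 (cyclin B1) was at 253 and 255 CPM before stress and at 110.2 and 107 CPM after 6 h. The 1 h libraries, at 255 and 246 CPM, were at the isosmotic level, and the 6 h libraries lay below all others. Cdc25c, the phosphatase that starts mitosis, and Spc25, a kinetochore protein, both fell by 1.52 on the log2 scale.

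Of 55 genes of S phase 16 rose and 23 fell, with a median of -0.07, and 14 rose and 36 fell under total counts. Cdc6, which licenses replication origins, rose 2.99-fold from 109 and 106 CPM to 322 and 321 CPM, and the repressors E2f7 and E2f8 rose 3.01-fold and 2.35-fold, while Mcm2 was not called. Cyclin D1 (Ccnd1) fell from 218 to 112 CPM, and Cdk6 and the inhibitor Cdkn2b rose 2.48-fold and 2.36-fold. Of 19 such G1 genes 9 rose and 7 fell (8 and 9 under total counts). Of 40 tested clustered histone genes 1 rose and 1 fell (1 and 2 under total counts).

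Damage and apoptosis genes moved in both directions, with 10 of 25 p53 targets and Gadd45 genes higher and 8 lower (5 and 10 under total counts). Cdkn1a (p21) rose 1.34-fold, whereas Btg2 fell from 122 and 122 CPM to 37.5 and 34.7 CPM and Gadd45g from 92.6 to 26.5 CPM. In the Bcl2 family 6 of 16 rose and 7 fell. The pro-apoptotic Bcl2l11 (Bim) rose 3.97-fold and the anti-apoptotic Bcl2l1 (Bcl-xL) 1.95-fold, while Bcl2 fell from 9.42 to 4.03 CPM.

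Most genes of the mitochondrial ribosome fell. Of 77 mitochondrial ribosomal proteins, 55 fell and 2 rose (median log2 change -0.51), and Mrps2 fell from 42.6 and 42.5 CPM to 13.2 and 13.6 CPM. Mrps6 was an exception, with a 4.18-fold rise from 30.2 to 126 CPM. Its annotated span on chromosome 16 (92058270 to 92112227, plus strand) contains that of Slc5a3 on the same strand. Reads of the overlapping parts may be shared, and their part in the rise of Mrps6 was not tested. Of 88 cytosolic ribosomal proteins 34 rose (38.6%, beside 30.5% of all genes) and 1 fell, with a median of 0.20. The number higher was 12 without isosmotic replicate 1, 20 without 6 h replicate 2 and 0 with all 16 libraries, and under total counts 2 were higher and 3 lower with a median of -0.0044.

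Elongation factors were among the largest gains in CPM. Eef1a1 rose from 6876 and 7424 CPM to 9876 and 10261 CPM (1.41-fold) and Eef2 from 4766 to 7179.6 CPM (1.51-fold). Of 36 initiation and elongation genes 17 rose and 12 fell (median log2 change 0.03), against 10 and 17 (median -0.18) under total counts. Of 60 ribosome biogenesis genes 30 rose and 11 fell (18 and 24 under total counts). Utp4 and Ppan, both needed for ribosome assembly, rose 1.98-fold and 1.96-fold.

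Other parts of the protein and energy machinery were lower or mixed. Of 20 cytosolic aminoacyl-tRNA synthetases 11 fell and 0 rose, with Aars at 408 and 418 CPM before and 259 and 266 CPM after stress. Proteasome subunits fell in 22 of 38 cases and rose in 4, and 14 fell without isosmotic replicate 2 or without 6 h replicate 1. Psmd6 fell by 0.78 and Psmd12 by 0.77 on the log2 scale, and Psmd5, an assembly chaperone, rose 2.36-fold.

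In the nuclear-encoded respiratory chain 8 of 80 genes were higher and 7 lower, with a median log2 change of 0.05. These counts were 2 and 26 under total counts (median -0.16), 23 and 7 with the 6 WT DMSO libraries alone and 1 and 2 with all 16 libraries. When 1 library was left out, there were 2 lower without isosmotic replicate 2 or 6 h replicate 1 and 13 lower without isosmotic replicate 1, and 2 higher without isosmotic replicate 1 or 6 h replicate 2 and 4 without 6 h replicate 1. The 13 mitochondrially encoded protein genes had 0 counts in all 4 libraries. Among 35 autophagy genes 11 rose and 15 fell, with the receptor Sqstm1 1.47-fold higher and Atg16l2 lower (11.5 to 3.14 CPM). Among 46 lysosomal genes 14 rose (30.4%) and 10 fell (21.7%), beside 30.5% and 27.1% of all genes. These were 6 and 16 under total counts and 5 and 8 with all 16 libraries, and 9 rose without 6 h replicate 2.

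RNA-processing genes rose in 22 of 39 cases and fell in 5 (8 and 14 under total counts). Hnrnpu, a scaffold protein of nuclear RNA, rose from 1183 and 1129 CPM to 2132 and 2101 CPM. The cold-inducible Cirbp fell from 24.7 and 24.2 CPM to 12.1 and 12.1 CPM. Nuclear long noncoding RNAs and snoRNA hosts showed a dip and recovery. Mir17hg, the host transcript of a microRNA cluster, was at 24.4 and 28.9 CPM, then 1.45 and 1.91 CPM at 1 h, then 59.6 and 61.7 CPM at 6 h. Of 24 such genes 14 were lower and 0 higher at 1 h, and 10 were higher and 1 lower at 6 h.

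Among 326 tested zinc finger genes named Zfp, 131 fell and 70 rose (median log2 change -0.29). Of 336 listed solute carriers 246 were tested, and 90 rose (36.6%, beside 30.5% of all genes) and 84 fell (34.1%, beside 27.1%). Under total counts these were 78 and 98. Of the 90, 23 had at most 3 counts in each isosmotic library and passed the filter through other libraries. The median log2 change was 0.15, and -0.15 with at least 10 counts in every library. Hypoxia-related genes rose in 6 of 16 cases and fell in 4 (5 and 5 under total counts), with Hif1a 3.49-fold higher (118 to 412 CPM), Ndrg1 2.92-fold and Vegfa 2.62-fold higher.

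Single antioxidant and zinc-response genes moved in both directions in DMSO cells. Of 29 Nrf2 targets and regulators, 8 rose and 8 fell, against 6 and 12 under total counts. The shares, 27.6% each, were near those over all genes (30.5% and 27.1%), so nothing is read from these counts. The Nrf2 gene itself, Nfe2l2, rose from 77.5 and 73.3 CPM to 146 and 140.2 CPM, and Gclc, which limits glutathione synthesis, rose 1.96-fold. Keap1, the inhibitor of Nrf2, fell from 45.2 and 50.1 CPM to 23.7 and 23.2 CPM and Osgin1 from 23.0 to 6.33 CPM, while Nqo1 was not called. The metallothionein Mt1 fell from 43.5 to 23.0 CPM and the zinc exporter Slc30a1 from 37.4 to 18.2 CPM, whereas Mtf1, the zinc-sensing transcription factor, rose 2.37-fold.

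Among genes with at least 1 CPM in both isosmotic libraries, a choice made after the data were seen, the largest rises included the following. Frat2, a positive regulator of Wnt signalling, rose 136-fold, from 1.73 and 2.02 CPM to 267 and 244 CPM. Slc5a5, the sodium-iodide symporter, rose 58.5-fold and Slco4a1, an organic anion transporter, 55.3-fold, the latter to 1019.9 and 1074 CPM from 19.4 and 18.5 CPM. Rnf183, a ubiquitin ligase of the renal medulla, rose 19.1-fold from 1.65 to 31.5 CPM. Plat, tissue plasminogen activator, rose 18.5-fold from 76.6 and 77.8 CPM to 1411 and 1450.3 CPM, and the glycogen phosphorylase Pygm rose 18.7-fold. In all of these both 6 h libraries stood above both controls.

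Gper1, a G protein-coupled oestrogen receptor, passed from near silence to a high level. It had 42 and 3 counts under isosmotic conditions, 55 and 28 at 1 h and 17278 and 16922 at 6 h (503 and 525 CPM). The 2 control libraries differed from each other, but both were far below the stressed libraries. Prss35, a protease-like secreted protein, went from 2 and 2 counts to 2142 and 2214, a ratio of 1443 (95% interval 563 to 5299 from counting error). Susd3 went from 0 and 0 counts through 90 and 81 at 1 h to 934 and 828, at least 388-fold.

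Further genes with 0 isosmotic counts included Tmprss7 and the cholecystokinin receptor Cckar (each at least 137-fold higher), Ptprb (at least 135-fold), the T-box factor Tbx21 (at least 85.6-fold), the heat-activated channel Trpv1 (at least 64.4-fold) and Chil4 (at least 63.8-fold). Of the 5790 higher genes, 920 had 0 counts in both isosmotic libraries.

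Most silent protein-coding genes remained so. Of 7966 with at most 3 counts in each isosmotic library, 1047 passed the filter, through other libraries. Called higher at 6 h were 828 (10.4% of the 7966), and 6083 of the 7966 still had at most 3 counts in each 6 h library. Those that gained reached a median of 0.509 CPM (quartiles 0.288 and 0.946), 197 reached 1 CPM and 4 reached 10 CPM. At 1 h the same genes had a median of 0.255 CPM. In the 6 h libraries with SFN, 713 of the 828 were also called higher. Those libraries were among the ones through which silent genes could pass the filter, so nothing is read from this share.

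An active gene was taken as one with at least 1 CPM in both 6 h libraries, and positions came from GENCODE M21 (GRCm38), where 97.5% of tested symbols were found. For 156 of the 828 (18.8%) an active gene on the same strand ended within 10 kb upstream, against 149 of 6083 (2.45%) that stayed silent, 17.9% of expressed genes that rose, and 13.2% of all 21507 protein-coding genes. The median distance to the nearest such gene was 42.4 kb in the first group, 495 kb in the second and 132 kb over all genes. No active gene upstream within 10 kb, facing within 10 kb or overlapping was found for 59.4% of gained genes and 89.8% of those that stayed silent, beside 50.2% of expressed genes that rose and 63.7% of all protein-coding genes. The part that reads running past a gene's end play in these counts was not tested.

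**Figure D4:**
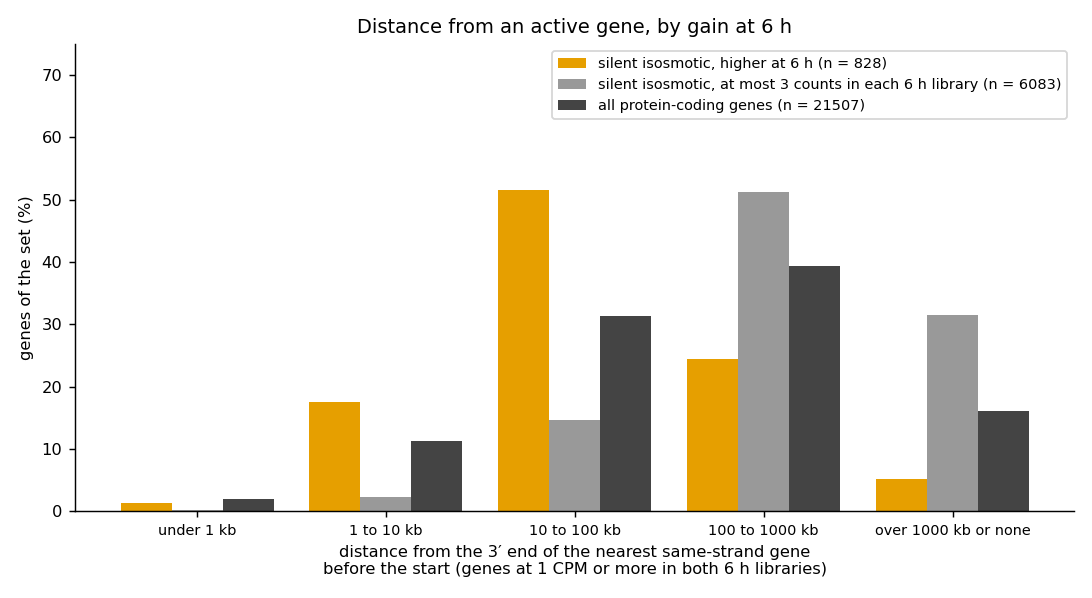
Distance from the start of a protein-coding gene to the end of the nearest active gene upstream on the same strand. The x axis gives distance classes and the y axis the percentage of genes in each set; bars stand for silent genes that gained counts, silent genes that stayed at 3 counts or fewer, and all protein-coding genes. The most frequent class was 10 to 100 kb for genes that gained (51.6%) and the next one for genes that stayed silent (51.3%).

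Single cases show both situations. Prss35 starts 169 kb after the end of Rwdd2a, the nearest active gene upstream. The nearest facing one, Cep162, lies 431 kb away, and no active gene overlaps Prss35. Ptprb starts 0.591 kb after the end of Ptprr, an active gene on the same strand that rose from 0.594 to 14.7 CPM. Tll2 lies 4.01 kb after Tm9sf3 (log2 change -0.11), and Susd3 lies 12.8 kb after Fgd3 (log2 change 0.93). Iqsec3, which went from 0 and 0 counts to 146 and 142, faces Slc6a12 from 7.16 kb away on chromosome 6, so that the end of each gene points to the other, and counting by strand is not stated in the sources used here.

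Markers of other cell types moved with these genes. Of 39 genes that mark proximal tubule, thick ascending limb, intercalated cells, fibroblasts, endothelium and leukocytes, 17 passed the filter on low counts, and of these 14 were higher and 0 lower at 6 h. A marker silent before stress passes that filter only through libraries in which it is higher, so nothing is read from this share. Their summed level was 15.1 to 17.5 CPM in isosmotic libraries and 47.2 to 54.7 CPM at 6 h. Of the 39, 29 had at most 3 counts in each isosmotic library and 8 were at 0 in all 4 libraries. The endothelial Pecam1 went from 0 and 4 counts to 123 and 99, the leukocyte gene Ptprc from 4 and 6 to 196 and 132, and the proximal tubule receptor gene Cubn from 3.96 to 11.8 CPM. Their part in other results was not tested.

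Among named genes with a mean of at least 50 counts over the 4 libraries, the noncoding RNA Lncenc1 fell by 3.92 on the log2 scale, from 4.88 and 3.84 CPM to 0.320 and 0.248 CPM. Spns3, a sphingolipid transporter relative, fell from 11.1 and 11.2 CPM to 1.46 and 0.775 CPM, and Nupl2, a nucleoporin, from 17.8 and 19.1 CPM to 2.21 and 1.61 CPM. Kcnab3, a potassium channel subunit, fell from 11.9 to 1.46 CPM. That the groups did not overlap was a condition for naming these genes. At higher levels, and chosen after their values were seen, Pdgfb fell from 177 and 163 CPM to 24.3 and 25.7 CPM and the cytochrome P450 gene Cyp1b1 from 45.4 to 7.70 CPM.

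Genes that rose and fell differed in size. Among protein-coding genes at 1 CPM or more, the 842 with a rise of at least 2-fold had a median exonic length of 5410 bp and a median span of 31.8 kb. The 1275 with a fall of at least 2-fold had medians of 4190 bp and 21.4 kb, and the 3298 not called had 4340 bp and 22.7 kb. Their median isosmotic levels were 21.5, 15.4 and 37.3 CPM.

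Relative to 1 h of stress, 5032 genes were higher at 6 h (26.5%) and 5291 lower (27.9%), and under total counts 3829 were higher and 7118 lower. At 1 h, 2717 genes were higher than isosmotic (14.3%) and 1617 lower (8.53%). Without isosmotic replicate 2 the number higher was 1328, and without 1 h replicate 1 or 2 it was 1565 or 1636, with 914 or 958 lower. These comparisons share libraries, so values are set side by side. Of the osmolyte genes, 6 were higher at 1 h and 0 lower, and from 1 h to 6 h 5 rose and 2 fell. Of the mitotic genes, 23 were higher and 4 lower at 1 h, and from 1 h to 6 h 45 fell and 5 rose. The largest rises from 1 h to 6 h among well-counted genes were those of Chil4, Akr1c18, Sprr2e, Gper1 and Slc6a12. Akr1c18, a hydroxysteroid dehydrogenase, had 0 counts in both 1 h libraries and 3.35 and 4.71 CPM at 6 h.

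A few genes had peaked before 6 h. Krt15, a basal keratin, had 4 and 5 counts under isosmotic conditions, 760 and 771 at 1 h and 69 and 50 at 6 h. The muscarinic receptor gene Chrm1 had 0 and 6 counts, then 134 and 114, then 4 and 0. Rpl3l had 7 and 0, then 177 and 195, then 0 and 7. In all 3 the 1 h libraries stood above the others, and Krt15 was still higher at 6 h than before stress (log2 4.09 ± 0.38).

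The 6 h comparison in SFN cells used 4 other libraries and gave 6035 genes higher (31.8%) and 5287 lower (27.9%), together 59.7%. Of the genes higher in DMSO cells, 4777 were also higher with SFN (82.5% of the DMSO list and 79.2% of the SFN list), and 27 were lower. Of the genes lower in DMSO cells, 4279 were also lower with SFN (83.4% and 80.9%), and 53 were higher. The difference between the responses was called for 803 genes (4.24%), 416 more positive with SFN (2.19%) and 387 more negative (2.04%). These counts depended on single libraries, with 272 to 834 more positive and 177 to 788 more negative when 1 of the 8 was left out, the lowest without DMSO 6 h replicate 2 and the highest without SFN isosmotic replicate 1 (positive) and DMSO isosmotic replicate 1 (negative). With all 16 libraries they were 116 and 32, and the group counts given below rest on the same fit.

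Values of osmolyte genes with SFN were as follows. Akr1b3 went from 299 and 305 CPM to 5071 and 5438 CPM with SFN, and its log2 change differed from that in DMSO cells by 0.14 (adjusted p = 0.44 in edgeR's test of the difference). Slc5a3 rose to 1104 and 928.3 CPM, Slc6a6 to 1089 and 1035 CPM, and Slc6a12 to 876 and 840 counts from 0 and 0. The difference was called for 0 of 8 osmolyte genes and 0 of 9 sodium pump genes. A difference that was not called does not show that the responses were equal.

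Differences gathered in other groups. The response was more positive with SFN for 23 of 28 immediate-early genes, 12 of 32 cytokine and NF-kB genes, 10 of 17 MAPK feedback genes and 10 of 30 actin genes. It was more negative for 8 of 32 chaperones, 7 of 29 Nrf2 targets and 9 of 59 mitotic genes. Cxcl2 stood at 0.809 and 0.573 CPM in isosmotic SFN libraries and at 169.8 and 168.9 CPM after 6 h, beside 7.28 and 152 CPM (means) in DMSO cells. Ccn2 was at 261 and 322 CPM in isosmotic SFN cells and at 257.7 and 250.8 CPM after 6 h, and Hspa1b was at 239.8 and 242 CPM and then 2608 and 2916 CPM. Gclc stood at 170 and 191 CPM in isosmotic SFN cells and at 166.2 and 155.7 CPM after stress.

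**Figure D5:**
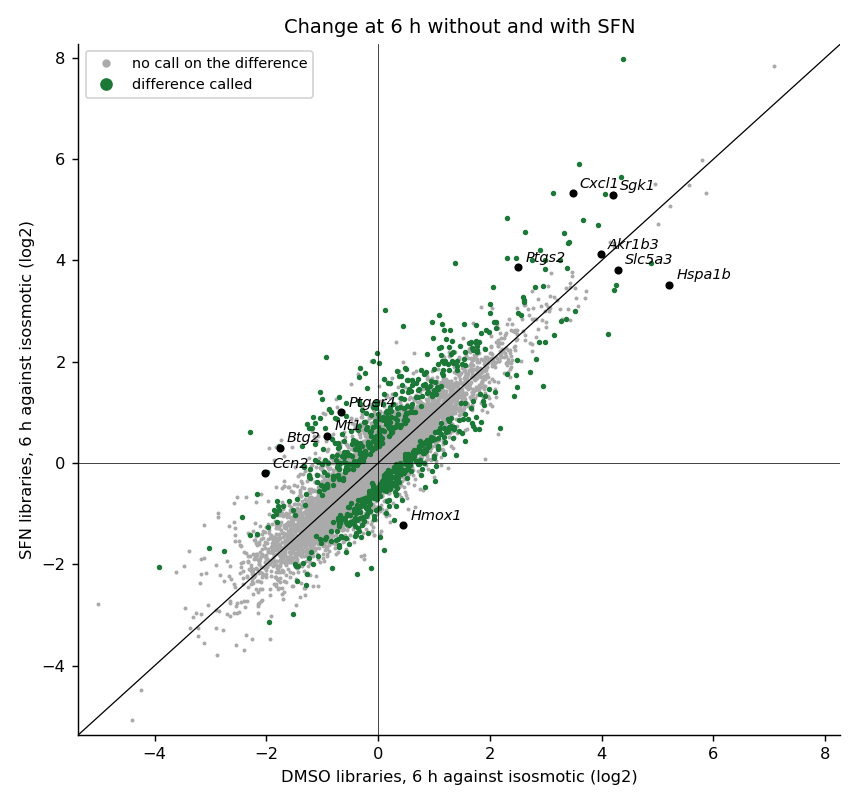
Response to 6 h of hyperosmotic stress with DMSO and with SFN. The x axis is the log2 change in DMSO cells, the y axis that in SFN cells, each point is a gene with at least 1 CPM in both isosmotic DMSO libraries, green points have a called difference, black points are labelled genes, and the line marks equal changes. Akr1b3 and Slc5a3 lie near the line, Ccn2, Btg2 and Ptger4 above it and Hspa1b below it.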

How the data were processed

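RNA-seq was performed on WT and Nrf2-/- mIMCD3 cells, and 12 WT libraries (6 conditions, 2 libraries each) were used here. Total RNA was extracted with TRIzol and sequenced on the Illumina NovaSeq platform. The authors deposited raw counts per gene symbol, 1 file per library, without normalization. The submitters' processing notes name Bowtie2, SAMtools, featureCounts and mm10, whereas the paper names Hisat2 as aligner. Their versions, the annotation and how strand or shared reads were treated are not given in the sources used here, so paralogs, overlapping genes and antisense genes are uncertain. Lines naming no gene (2 in isosmotic DMSO replicate 1) were dropped. Among values between 1 and 10, 63.2% to 65.2% were even in the 4 libraries compared, so a count may not be an independent fragment. Intervals and floors cover counting error only. The labels mention primary cells in the extraction text and mIMCD3 elsewhere. The replicate numbers of libraries were those of the sample titles.

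Analyses were run in R 4.3.3. Genes were filtered with filterByExpr, scaled by TMM and tested with edgeR 4.0.16 (quasi-likelihood F-test, robust, 1 coefficient per condition, 6 residual degrees of freedom), with Benjamini-Hochberg adjustment over all genes tested and a threshold of 0.05. CPM are scaled by TMM. A gene with at most 3 counts in each isosmotic library was called silent; a fold change against 0 counts was given as a bound with 3 counts per library as floor. p-values measure the spread between the 2 libraries of a condition, pooled over the 6 WT conditions and moderated across genes. This spread may be technical. Each SE is the absolute log2 change divided by the square root of the F statistic, so it rests on the same pooled spread. With 2 against 2 libraries an exact permutation test cannot go below p = 0.333.

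Genes are named if they belong to the organic osmolyte list, are among the 15 largest log2 changes or the 10 largest changes in CPM in a direction (called, not overlapping, mean of at least 50 counts, predicted genes left out), are the first or among the 5 largest called members of 1 of 54 lists, or are among the 5 largest differences between times or between SFN and DMSO. Exceptions are marked in the text or serve as markers of the line. The members and lists were chosen with earlier results of these data known. Same-numbered libraries did not deviate together (correlations from -0.21 to 0.131 over 15 pairs, 3 of them over 0.1), so numbers were not used as pairs.

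In simulated counts of 17875 genes for the 6 h comparison, 89 of 100 genes changed 2-fold and 96 of 100 changed 4-fold were called, with 15 false calls. Only these genes were changed, equally in both directions, at a mean of at least 1 CPM and with the fitted spread. In the data 57.6% of genes were called, so the simulation gives no error rate for so broad a response or for silent genes. Alternatives were other scalings, DESeq2 1.42.0, other filters, other sets of libraries, a replicate block, a 2-fold minimum, leaving out each library, and 2 gene subsets added after the data were seen. Nrf2-/- libraries entered only the alternative with all 16 libraries. A few single-gene results are not reported here.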

Additional observations from a re-analysis of the deposited data

Results flagged for a closer look

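Of 329 named genes, 66 (20.1%) had a 6 h response that differed between SFN and DMSO cells by edgeR's test of the difference. Some genes were named for this difference, so the share is not comparable with that over all genes. The difference was more positive with SFN for 46 and more negative for 20, and 6 changed in opposite directions. Values below are differences of log2 changes, SFN minus DMSO. For genes with 0 or near 0 isosmotic counts the fitted difference depends on the prior count. No condition had the 4 samples needed to look for a sample standing apart.

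Among signalling, immediate-early and inflammatory genes the values were 2.90 for Egr2, 2.57 for Fosb, 2.53 for Arc, 1.27 for Fos, 1.26 for Klf4, 0.84 for Ier3, 0.60 for Fosl2, 2.06 for Btg2, 0.58 for Srf, 1.31 for Dusp6, 0.57 for Dusp1, 0.64 for Spry1, 1.08 for Sgk1, 3.59 for Cxcl2, 1.84 for Cxcl1, 1.11 for Cxcl5, 1.34 for Ccl2, -0.78 for Il11, 0.96 for Ifih1, 1.36 for Ptgs2 and 1.67 for Ptger4.

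Among YAP, BMP and cytoskeletal genes they were 1.82 for Ccn2, 1.01 for Ccn1, 0.85 for Ankrd1, 1.80 for F3, 0.73 for Id1, 1.00 for Fhl2, 0.51 for Cnn2 and 0.30 for Actg1. Among growth and survival genes they were 1.11 for Cdkn1a, 1.05 for Gadd45g, 0.60 for Bcl2l11, 0.39 for Bcl2l1, -0.83 for Ccnd2, 0.87 for Gdf15, 0.52 for Ndrg1, 0.66 for Nfil3 and -0.47 for Pax2.

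Among stress, zinc and antioxidant genes they were -1.69 for Hspa1b, -1.58 for Hspa1a, -0.75 for Hsph1, -0.52 for Hspa4l, -0.51 for Hspa8, -0.63 for Ddit4, -0.37 for Atf4, -1.14 for Gclc, -0.55 for Abcc4, 4.89 for Mt2, 1.46 for Mt1 and 1.92 for Slc30a1. Mt1 stood at 13.6 and 9.90 CPM in isosmotic SFN cells and at 17.32 and 16.73 CPM after 6 h, while it fell in DMSO cells.

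Among the remaining genes they were -5.83 for Ankrd7, -5.74 for Susd3, -5.68 for Prl2c2, -4.14 for Plb1, -2.69 for Espnl, -0.94 for Flrt2, -0.81 for Nup210l, -0.75 for Rnf183, 2.47 for Muc4, 1.31 for Hs3st1, 1.36 for Kcnab3, 1.87 for Lncenc1, 0.79 for Mir17hg, 0.49 for Tra2b, 0.36 for H3f3b and 0.41 for Atp6v1d. Susd3 had 6 and 8 counts in isosmotic SFN libraries against 0 and 0 with DMSO, and 851 and 748 against 934 and 828 at 6 h.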

How the results depend on the processing

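In the 6 h comparison the number of genes higher and lower was 6198 and 4654 with RLE size factors, 6390 and 4473 with upper-quartile factors, 6058 and 4533 with DESeq2, 5887 and 5129 without a filter, 4051 and 4270 with at least 10 counts in every library, 5279 and 4767 with the 4 libraries alone, 4671 and 4293 with all 16 libraries, and 4936 to 5256 and 4398 to 4778 without 1 library. A 2-fold minimum left 3584 higher and 1606 lower, and genes at 1 CPM or more in both isosmotic libraries, a subset added after the data were seen, held 3142 higher and 4949 lower. With the replicate number as a block, 5646 genes were higher and 5063 lower. The 1 h comparison fell to 1385 higher and 801 lower with all 16 libraries and ranged from 1328 to 2746 higher and from 914 to 1713 lower without 1 library. The difference between SFN and DMSO fell to 116 more positive and 32 more negative with all 16 libraries, and ranged from 272 to 834 and from 177 to 788 without 1 library. The cause of these shifts was not tested.

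Of 4976 values for 328 named genes under 14 planned settings and those added, 4858 stayed on their side of the threshold with no called value changing sign, 112 lost the call, 3 gained it and 3 called values reversed. Among the 4858 were 13 values, of 7 genes, that changed sign and were called in neither fit. The reversals arose under total counts, for Slc38a1 (-0.01956), Hspa5 (-0.056) and Srebf2 (-0.0002583) on the log2 scale. With 2 libraries per condition, genes under about 1 CPM rest on few reads, and changes under 1.5-fold depend on the scaling.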
